A study of Sus scrofa with 12 samples.

Results

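Metabolic nuclear receptors and their coactivators were followed in pig heart muscle next to an infarct and far from it. The set holds 10 genes listed by name: the receptors PPARA, PPARD, ESRRA, ESRRB, ESRRG and RXRG, the coactivators PPARGC1A and PPARGC1B, the transcription factor NRF1 and the mitochondrial DNA-binding factor TFAM. All 10 were matched to an identifier by their pig symbol, among 35682 genes in the count tables, and all 10 were among the 13844 genes that had enough counts to be tested. RNA was sequenced from the hearts of 6 female Yorkshire pigs with the animal numbers 1022, 1322, 1323, 1623, 1922 and 3622, which were 10 to 12 weeks old when the model was made. In all 6 animals a balloon closed the left anterior descending coronary artery for 60 min. From day 9 after this injury all were immunosuppressed, with prednisolone at 20 mg/day, tacrolimus at 0.75 mg/kg/day and mycophenolate mofetil at 500 mg/day. On day 14 the animals had a left thoracotomy and received vascular organoids made of human smooth muscle cells and human endothelial progenitor cells, or fibrin glue without cells. Tissue was taken 28 days later, from the section beside the infarct (border zone) and from the posterior wall (remote zone), 1 library of each per animal. The zone of each library was taken from its title, whereas the labelled extraction protocol names only the mid-border zone, for all 12 libraries. The labels do not say which animals received organoids, so both zones hold animals of either treatment and the treatments were not compared. No library of an uninjured heart was analysed here, so the remote zone is muscle of an injured heart.

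Peroxisome proliferator-activated receptors (PPARs) are fatty acid sensors that bind DNA as partners of retinoid X receptors (RXRs) and switch on genes of fatty acid uptake and burning. Estrogen-related receptors (ERRs) are orphan receptors, active without a known hormone, that bind genes of the citric acid cycle and the respiratory chain. The PGC-1 coactivators, encoded by PPARGC1A and PPARGC1B, bind to both kinds of receptor and to NRF1. TFAM packs mitochondrial DNA and takes part in its transcription. Heart muscle depends on fatty acids for most of its energy, and these genes are known for setting its oxidative capacity.

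Library totals were 15130210 to 30526110 counts in the border zone and 20091415 to 31618680 counts for the remote zone. Levels are given as CPM, counts per 1000000 of the library total after TMM scaling, and differences as log2 fold changes of border over remote zone, so a value below 0 means lower in the border zone. Cardiomyocyte markers were present in every library, with 12 of 15 listed genes matched, none of them at 0, and a summed level of 13483 to 82544 CPM in the border zone against 68765 to 113559 CPM in the remote zone. Border zone 1022, as the border zone library of animal 1022 is called here, had the lowest sum. Border zone 3622 had counts on 28024 genes, the other 11 libraries on at most 20148. In remote zone 3622 and remote zone 1322, long transcripts were low relative to short ones.

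Most of the 10 genes had a lower estimate in the border zone, but none passed the threshold of edgeR's test. ESRRA, PPARA and PPARGC1A were furthest below 0, each with a log2 fold change of -0.71, and only ESRRA was lower in 6 of 6 animals. With the animal as a replicate block ESRRA was at -0.85, RXRG at -0.78, PPARGC1A at -0.68, ESRRB at -0.65 and PPARA at -0.43. By the quasi-likelihood test of edgeR, with Benjamini-Hochberg adjustment over all genes tested, 0 of the 10 had an adjusted p under 0.05, while 2.07% of all genes tested did, nearly all of them higher in the border zone (2.06%, against 0.0144% lower). At an unadjusted p under 0.05 by edgeR, 1 of the 10 passed, ESRRA, against 24.7% of all genes tested. With the animal as a replicate block 0 passed after adjustment, where the background was 0.296%, and ESRRA and TFAM passed unadjusted. The Wald test of DESeq2 called 0 of the 10 without the block, where the background was 10.3% (8.48% higher and 1.85% lower). With the block it called 1 of the 10, ESRRA, where 17.8% of all genes were called (9.15% higher and 8.67% lower). The log2 fold change was below 0 for 8 of the 10 and above 0 for PPARD and NRF1. Its median over the 10 was -0.37, against 0.04 over all genes tested, of which 46.7% were below 0. Without animal 1022 each of the 8 genes below 0 had a higher value, from -0.56 for PPARGC1A to 0.36 for ESRRG. Among them, ESRRB was then at -0.11 and PPARGC1B at -0.10. Of the 10 genes, 6 were lower in the border zone of 5 or 6 animals, as were 25.0% of all genes tested, and 1 was higher in 5 animals, as were 28.8% of all genes in 5 or 6. The CPM ranges of the zones overlapped for each of the 10 genes, and failed to overlap for 2.69% of all genes. In these bulk samples, fewer cells of a type and less RNA per cell cannot be told apart.

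**Figure D1:**
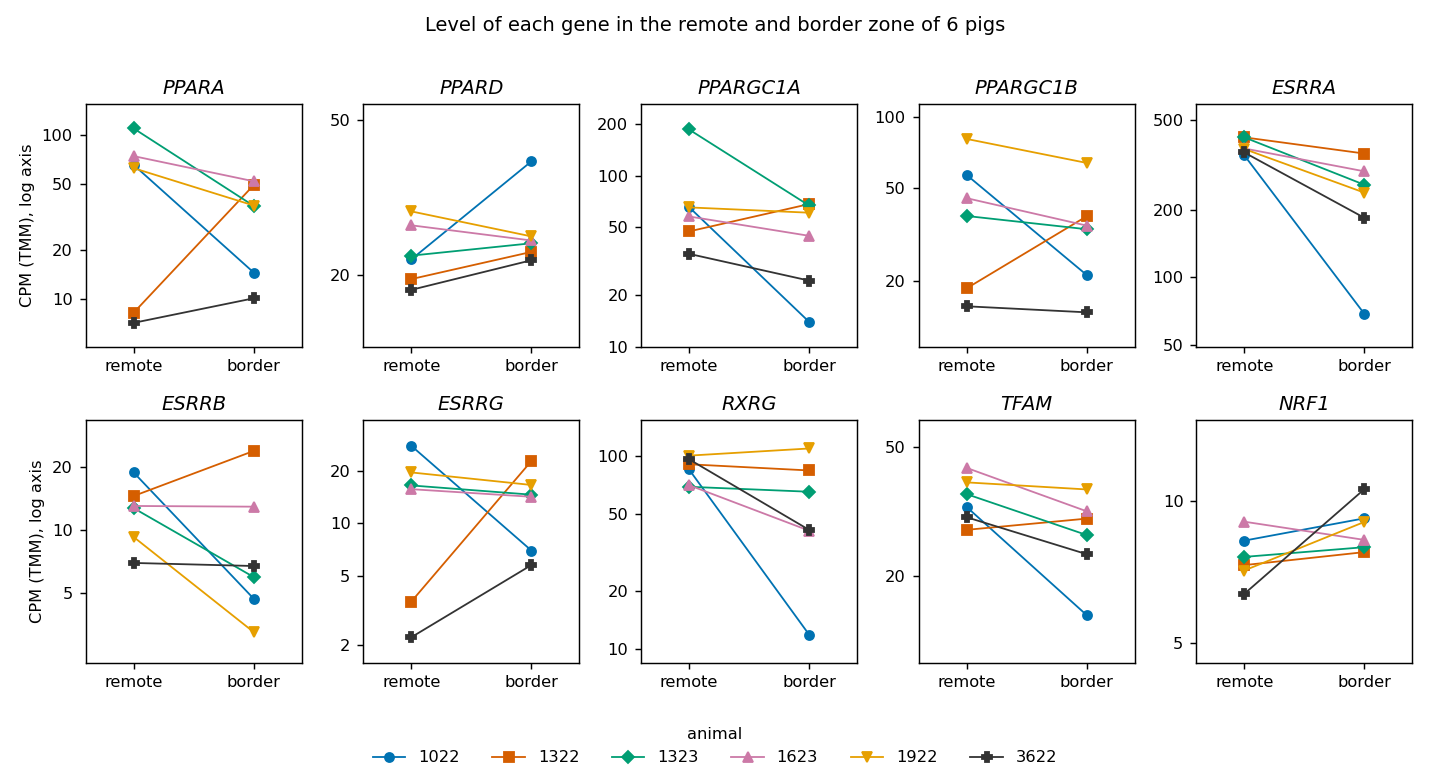
Level of each of the 10 genes in TMM-scaled CPM on a log axis, in the remote and border zone of 6 pigs, 1 library per point, with a line joining the zones of 1 animal and a separate vertical scale in each panel. The ESRRA lines all slope down, from 349 to 419 CPM in the remote zone to 68.9 to 355 CPM in the border zone, while the PPARA and ESRRG lines of animals 1322 and 3622 start from the lowest remote zone levels and slope up.

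ESRRA encodes ERR alpha, the receptor that binds many genes of oxidative phosphorylation, and it was lower in the border zone of 6 of 6 animals. Lower in 6 of 6 was also the pattern of 11.1% of all genes tested. The gene is at chr2:7803504-7812868 on the minus strand of Sscrofa11.1. In the remote zone its level was 349 CPM in animal 1022, 419 in 1322, 419 in 1323, 374 in 1623, 372 in 1922 and 359 in 3622. In the border zone it was 68.9 CPM in animal 1022, 355 in 1322, 258 in 1323, 296 in 1623, 238 in 1922 and 184 in 3622. The remote zone libraries lay close together, within 1.20-fold of each other, and the border zone libraries spread over 5.16-fold. The zones overlapped only because border zone 1322, at 355 CPM, was above remote zone 1022, at 349 CPM. The log2 fold change was -0.71 (SE 0.29, n = 6 per zone, 1.64-fold lower in the border zone), with an adjusted p = 0.163 by edgeR's quasi-likelihood test. With the animal as a block it was -0.85, with an adjusted p = 0.107 by edgeR. In DESeq2 with the block it was -0.90, with an adjusted p = 0.00978. Within animals the difference ran from -2.34 on the log2 scale in animal 1022 to -0.24 in animal 1322. Without animal 1022 the log2 fold change was -0.55, with an adjusted p = 0.157 by edgeR, and -0.58 with the block, with an adjusted p = 0.0508. ESRRA shares 53 exon bases with TRMT112 on the opposite strand, and in these nondirectional libraries reads of the shared bases cannot be assigned to a strand. TRMT112 was at 18.6 to 37.7 CPM, with its highest levels in the remote zone of animals 1322 and 3622.

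The 300 bases before the annotated start of ESRRA and of TFAM are shown because NRF1, itself among the 10, is known to bind promoters of mitochondrial genes, and because ESRRA holds a match to its core while TFAM, a gene that NRF1 is known to bind, does not. Across the 12 libraries the log2 CPM of ESRRA and NRF1 had r = -0.58 (rho -0.68). For NRF1 with RXRG, whose window holds no match, r was -0.51 (rho -0.57), and with TFAM -0.31 (rho -0.22). The remaining genes had r with NRF1 between -0.38 (PPARGC1A) and 0.41 (PPARD). The sequences are from the RefSeq annotation and genome of Sscrofa11.1, 5′ to 3′ on the strand of each gene, and capitals mark a match to the NRF1 core GCGCATGC. The ESRRA window is chr2:7812869-7813168 and the TFAM window chr14:92279732-92280031, both on the minus strand.
ESRRA: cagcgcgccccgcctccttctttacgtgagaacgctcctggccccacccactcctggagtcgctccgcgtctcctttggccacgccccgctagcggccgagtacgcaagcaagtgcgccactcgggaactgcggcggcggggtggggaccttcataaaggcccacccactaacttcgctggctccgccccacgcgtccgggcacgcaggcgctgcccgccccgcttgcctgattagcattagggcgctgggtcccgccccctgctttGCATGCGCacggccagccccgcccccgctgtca
TFAM: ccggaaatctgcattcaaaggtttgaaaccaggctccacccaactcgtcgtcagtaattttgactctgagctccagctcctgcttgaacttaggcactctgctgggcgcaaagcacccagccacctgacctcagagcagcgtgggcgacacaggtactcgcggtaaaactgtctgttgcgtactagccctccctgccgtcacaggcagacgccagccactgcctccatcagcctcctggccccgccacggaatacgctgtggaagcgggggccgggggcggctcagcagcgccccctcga
In the ESRRA window the core lies 33 to 26 bases before the start, and reads GCGCATGC on the strand opposite to the gene. The windows of the other 9 genes, TFAM included, held no match to these letters on either strand. The PPARA model holds only coding sequence, so the window before its annotated start need not be its promoter. Among 19545 promoter windows of this length, 462 (2.36%) held the NRF1 core. The ERR element TCAAGGTCA, searched on both strands, was in 82 windows (0.42%) and in none of the 10. A match of letters describes the window and was not tested for binding.

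ESRRB, the estrogen-related receptor best known from the placenta and stem cells, had 67 to 489 counts per library. It lies at chr7:99511135-99699478 on the plus strand. Its remote zone level was 18.8 CPM in animal 1022, 14.5 in 1322, 12.7 in 1323, 13.0 in 1623, 9.25 in 1922 and 6.95 in 3622. Its border zone level was 4.69 CPM in animal 1022, 23.8 in 1322, 5.95 in 1323, 12.9 in 1623, 3.25 in 1922 and 6.72 in 3622. Border zone 1322 was the highest of all 12 libraries and border zone 1922 the lowest, so the remote zone range fell inside that of the border zone. It was lower in the border zone of 5 animals, with log2 differences of -1.99 in animal 1022, -1.48 in 1922 and -1.09 in 1323, but of -0.01 in 1623 and -0.05 in 3622. Between the zones the log2 fold change was -0.40 (SE 0.43, n = 6 per zone), with an adjusted p = 0.596 by edgeR's quasi-likelihood test. It was -0.65 with the animal as a block (adjusted p = 0.251), -0.11 without animal 1022 (adjusted p = 0.942) and -0.87 without animal 1322 (adjusted p = 0.154).

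ESRRG encodes ERR gamma, which is abundant in heart and other oxidative tissue, and its levels went in opposite directions in different animals. It lies at chr10:6710615-7371419 on the minus strand. In the remote zone its level was 27.9 CPM in animal 1022, 3.54 in 1322, 16.5 in 1323, 15.7 in 1623, 19.6 in 1922 and 2.21 in 3622. Its border zone level was 6.97 CPM in animal 1022, 22.8 in 1322, 14.6 in 1323, 14.2 in 1623, 16.6 in 1922 and 5.75 in 3622. Remote zone 3622 and remote zone 1322 were the lowest of the 12 libraries, followed by border zone 3622 and border zone 1022. Within animals, the log2 difference of border minus remote zone was -1.99 in animal 1022, 2.66 in animal 1322 and 1.35 in animal 3622, while the other 3 animals were between -0.25 and -0.14. The log2 fold change was -0.08 (SE 0.52, n = 6 per zone), with an adjusted p = 0.941 by edgeR's quasi-likelihood test. It was 0.18 with the animal as a block, with an adjusted p = 0.845, and 0.36 without animal 1022, so its sign depended on the fit. It was also above 0, at 0.07, when libraries were scaled by their totals only.

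PPARA encodes the PPAR that drives fatty acid oxidation in heart and liver, and it had the widest remote zone range of the 10 genes. RefSeq places it at chr5:3302755-3321091 on the minus strand, in a model of 1404 exon bases that holds only coding sequence. In the remote zone its level was 65.9 CPM in animal 1022, 8.24 in 1322, 110 in 1323, 74.5 in 1623, 62.9 in 1922 and 7.15 in 3622. Its border zone level was 14.5 CPM in animal 1022, 49.6 in 1322, 37.0 in 1323, 52.3 in 1623, 37.2 in 1922 and 10.1 in 3622. In 4 remote zone libraries the level was above that of every border zone library, and in the other 2, those of animals 1322 and 3622, it was below that of every border zone library. The remote zone SD was 1.73 on the log2 scale, a value reached by 0.556% of all genes tested, and the highest and lowest remote zone levels differed by 15.4-fold. Between the zones the log2 fold change was -0.71 (SE 0.61, n = 6 per zone), with an adjusted p = 0.488 by edgeR's quasi-likelihood test, and -0.43 with the animal as a block, with an adjusted p = 0.634. It was -1.09 without animal 1322 (adjusted p = 0.25) and -0.44 without animal 1323 (adjusted p = 0.73). Within animals the log2 difference was -2.17 in 1022, -1.57 in 1323, -0.76 in 1922 and -0.51 in 1623, but 0.49 in 3622 and 2.58 in 1322.

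PPARD encodes the PPAR found in most tissues, and its levels kept within a narrow range in both zones. It lies at chr7:31222533-31295221 on the plus strand. Border zone levels were 21.8 to 39.1 CPM (median 24.3), against 18.3 to 29.1 CPM (median 22.1) for the remote zone. Border zone 1022, at 39.1 CPM, stood above the other 5 border zone libraries, which were between 21.8 and 25.1 CPM, and the same animal had 21.9 CPM in the remote zone. Its log2 fold change was 0.19 (SE 0.17, n = 6 per zone), with an adjusted p = 0.519 by edgeR's quasi-likelihood test, and the border zone was higher in 4 of 6 animals. With the animal as a block the log2 fold change was 0.18 (SE 0.15, adjusted p = 0.442 by edgeR). Without animal 1022, and without the block, it was 0.03, with an adjusted p = 0.961.

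RXRG encodes the retinoid X receptor that is enriched in muscle, a partner with which PPARs can bind DNA. The gene is at chr4:85158313-85357116 on the plus strand. In the remote zone it had 85.8 CPM in animal 1022, 91.1 in 1322, 69.6 in 1323, 71.0 in 1623, 101 in 1922 and 96.8 in 3622. Its border zone level was 11.9 CPM in animal 1022, 84.6 in 1322, 65.6 in 1323, 41.2 in 1623, 110 in 1922 and 41.6 in 3622. The remote zone libraries were within 1.46-fold of each other, and the border zone libraries spread over 9.25-fold, from the lowest of all 12 in animal 1022 to the highest of all 12 in animal 1922. Its log2 fold change was -0.54 (SE 0.38, n = 6 per zone), with an adjusted p = 0.39 by edgeR's quasi-likelihood test. The border zone was lower in 5 of 6 animals, with log2 differences of -2.84 in 1022, -1.22 in 3622, -0.78 in 1623, -0.11 in 1322 and -0.08 in 1323. With the animal as a block the log2 fold change was -0.78, with an adjusted p = 0.201, and without animal 1022 it was -0.32, with an adjusted p = 0.596 by edgeR.

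PPARGC1A encodes PGC-1 alpha, the coactivator that responds to exercise, fasting and cold and is known for driving mitochondrial biogenesis. Its position is chr8:17841844-18527953 on the minus strand. Its remote zone level was 65.8 CPM in animal 1022, 47.3 in 1322, 187 in 1323, 57.9 in 1623, 65.4 in 1922 and 35.0 in 3622. Its border zone level was 14.0 CPM in animal 1022, 68.4 in 1322, 67.1 in 1323, 44.6 in 1623, 60.9 in 1922 and 24.4 in 3622. Remote zone 1323 stood highest, and border zone 1022 and border zone 3622 were the lowest of the 12 libraries. Within animals the log2 difference was -2.23 in 1022, -1.48 in 1323, -0.52 in 3622, -0.38 in 1623 and -0.10 in 1922, and 0.53 in 1322. The log2 fold change was -0.71 (SE 0.44, n = 6 per zone), with an adjusted p = 0.328 by edgeR's quasi-likelihood test, and -0.68 with the animal as a block, with an adjusted p = 0.212. Without animal 1323, which had the highest remote zone level, it was -0.40, with an adjusted p = 0.554, and without each other animal it was between -0.97 and -0.56.

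PPARGC1B encodes PGC-1 beta, the related coactivator that keeps up basal mitochondrial function. Its position is chr2:150823338-150924871 on the plus strand. It had 56.6 CPM in the remote zone of animal 1022, 18.7 in 1322, 37.9 in 1323, 45.1 in 1623, 80.4 in 1922 and 15.7 in 3622. Border zone levels were 21.3 CPM in animal 1022, 37.8 in 1322, 33.3 in 1323, 34.5 in 1623, 63.6 in 1922 and 14.8 in 3622. Levels were lowest in both zones of animal 3622 and in remote zone 1322, and highest in both zones of animal 1922. Its log2 fold change was -0.31 (SE 0.40, n = 6 per zone), with an adjusted p = 0.671 by edgeR's quasi-likelihood test. With the animal as a block it was -0.24 (SE 0.27, adjusted p = 0.57 by edgeR). The border zone was lower in 5 of 6 animals. The log2 difference was -1.41 in animal 1022, between -0.38 and -0.09 in the other 4 of these and 1.02 in animal 1322. Without animal 1022 the log2 fold change was -0.10, with an adjusted p = 0.949, and without animal 1322 it was -0.49, with an adjusted p = 0.476.

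NRF1 encodes nuclear respiratory factor 1, which binds promoters of nuclear genes for the respiratory chain, among them TFAM. Its position is chr18:19008408-19142678 on the minus strand. Its levels were low and even, with 7.79 to 10.6 CPM (median 8.65) in the border zone, 6.35 to 9.04 CPM (median 7.46) in the remote zone and 95 to 278 counts per library. Border zone 3622 was the highest of the 12 libraries and remote zone 3622 the lowest. Its log2 fold change was 0.21 (SE 0.15, n = 6 per zone), with an adjusted p = 0.40 by edgeR's quasi-likelihood test, and the border zone was higher in 5 of 6 animals, all but animal 1623. With the animal as a block the log2 fold change was 0.21 (SE 0.15, adjusted p = 0.375 by edgeR). Without animal 3622, and without the block, it was 0.10, with an adjusted p = 0.727.

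TFAM encodes mitochondrial transcription factor A. Its position is chr14:92261713-92279731 on the minus strand. In the remote zone it had 32.7 CPM in animal 1022, 27.8 in 1322, 35.8 in 1323, 43.1 in 1623, 38.9 in 1922 and 30.4 in 3622. Border zone levels were 15.2 CPM in animal 1022, 30.1 in 1322, 26.8 in 1323, 31.7 in 1623, 37.0 in 1922 and 23.4 in 3622. Border zone 1022 was the lowest, and the border zone was lower in 5 of 6 animals, all but animal 1322. Its log2 fold change was -0.35 (SE 0.20, n = 6 per zone), with an adjusted p = 0.287 by edgeR's quasi-likelihood test, and -0.38 with the animal as a block, with an adjusted p = 0.16. Without animal 1022 it was -0.24, with an adjusted p = 0.508 by edgeR.

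Animal 1022 had the lowest within-animal difference for 8 of the 10 genes, all but PPARD and NRF1. Over the 10 genes, the median difference of border minus remote zone was -1.99 on the log2 scale in animal 1022, -0.36 in animal 1623, -0.30 in animal 1323, -0.23 in animal 1922, -0.07 in animal 3622 and 0.38 in animal 1322. The median over all genes tested was between -0.04 and 0.14 in each animal. In animal 1623 all 10 genes were lower in the border zone, in animals 1022, 1323 and 1922 it was 8, in animal 3622 it was 6 and in animal 1322 only ESRRA and RXRG. The 12 cardiomyocyte markers were likewise lowest in animal 1022 and highest in animal 1322, with a mean difference of -2.44 in animal 1022, -0.66 in animal 3622, -0.58 in animal 1323, -0.38 in animal 1623, -0.36 in animal 1922 and 0.08 in animal 1322. All 12 had a log2 fold change below 0, with a median of -0.53, and 0 of the 12 had an adjusted p under 0.05 by edgeR. An unadjusted p under 0.05 by edgeR was found for 3, against 24.7% of all genes tested. DESeq2 called 1, or 5 with the block, all lower, where it called 1.85% and 8.67% of all genes lower.

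**Figure D2:**
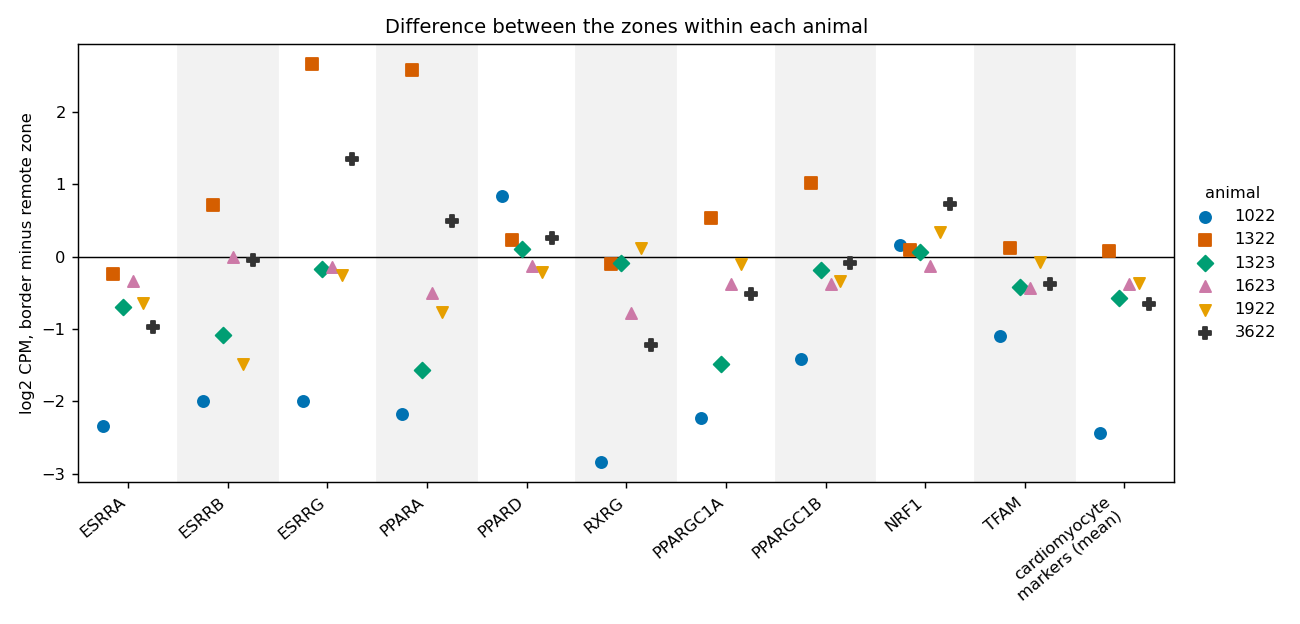
Within-animal difference in log2 CPM, border minus remote zone, for each of the 10 genes and for the mean of 12 cardiomyocyte markers, with 1 symbol per animal and a line at 0. Animal 1022 lies at or below -1.10 for 8 genes and at -2.44 for the markers, and animal 1322 lies above 2.5 for ESRRG and PPARA.

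The mean difference of the cardiomyocyte markers was then subtracted within each animal. Of all genes tested, 34.9% were higher than the markers in 6 of 6 animals and 76.4% in 5 or 6, and the median over all genes was 0.56 on the log2 scale, so a higher value is common here. Relative to the markers, PPARD, NRF1 and ESRRG were higher in the border zone in 6 of 6 animals, with medians of 0.47, 0.67 and 0.43 on the log2 scale. PPARGC1A, PPARGC1B and TFAM were higher in 5 of 6, with medians of 0.18, 0.48 and 0.22, and ESRRB in 4 of 6, with a median of 0.41. PPARA was split evenly, with 3 animals on each side and a median of 0.07. ESRRA and RXRG were lower than the markers in 4 of 6 animals, with medians of -0.20 and -0.29, and 3.76% of all genes were lower in 4 or more. ESRRA stayed closest to the markers, between -0.31 and 0.11 in all 6 animals. Markers of other cells differed too: 9 of 12 fibroblast and matrix genes had an adjusted p under 0.05 by edgeR and were higher in the border zone (median log2 fold change 2.64). Their summed level was 3264 to 70070 CPM there, against 1125 to 2781 CPM for the remote zone. COL1A1, 1 of the 12, was at 30498 CPM in border zone 1022 and at 878 to 4009 CPM in the other border zone libraries. With the animal as a block edgeR called 1 of the 12, with a median of 2.18. Without the block it called 0 with animal 1323, 1623, 1922 or 3622 left out, 9 without 1322 and 8 without 1022 (median 1.76). With the block it called 10 without 1022 (median 1.72) and 0 without any other animal. The part of these cell mixtures in the differences of the 10 genes was not tested. For macrophage markers the median was 1.55 over 10 genes, for smooth muscle and pericyte markers 1.33 over 10 and for endothelial markers 0.16 over 10. By edgeR 0 genes of each were called, where 10, 8 and 0 had an unadjusted p under 0.05, against 24.7% of all genes tested. Without animal 1022 these medians were 0.62, 0.70 and -0.02. DESeq2 called 5 macrophage, 5 smooth muscle and pericyte and 0 endothelial markers, all higher, where it called 8.48% of all genes higher. Adipocyte markers had a median of 0.50 over 6 genes, T and B cell markers 0.62 over 4 and cell division genes 1.87 over 4. The adipocyte median was -0.53 without animal 1323, and the cell division median was 0.95 without animal 1022.

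Across the 12 libraries the genes had different low points, though the patterns overlapped. PPARA, ESRRG and PPARGC1B were low in remote zone 1322, remote zone 3622 and border zone 3622. Their log2 CPM correlated with r = 0.92 (rho 0.75) for PPARA and ESRRG, 0.86 (rho 0.86) for PPARGC1B and ESRRG, and 0.83 (rho 0.78) for PPARA and PPARGC1B. ESRRA, RXRG, TFAM and PPARGC1A had their lowest level in border zone 1022, with r = 0.87 (rho 0.40) for ESRRA and RXRG, 0.83 (rho 0.54) for ESRRA and TFAM, and 0.81 (rho 0.55) for RXRG and TFAM. PPARGC1A had r = 0.76 (rho 0.45) with ESRRA, 0.67 (rho 0.28) with RXRG and 0.75 (rho 0.41) with TFAM. For each pair of these 4 genes rho was lower than r. By rank TFAM was closer to PPARGC1B and PPARA of the other pattern, with rho = 0.82 and 0.71, but not to ESRRG, with rho = 0.54. PPARA and RXRG, which can act as partners, had r = 0.22 and rho = -0.03. These are descriptions over 12 libraries that share animals, zones and scaling.

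Of the 3 libraries in which PPARA, ESRRG and PPARGC1B were low, 2 also had low levels of long transcripts. For each library, the median deviation of 2290 genes under 2000 exon bases was subtracted from that of 1591 genes over 8000 exon bases, on the log2 scale. This measure, chosen after the levels were seen, was -0.90 in remote zone 3622 and -0.70 in remote zone 1322, -0.10 in border zone 3622, between -0.05 and 0.43 in 8 libraries and 0.70 in border zone 1022. Exon lengths were known for 79.5% of the genes tested, under the 80% needed for a check over all genes, so it serves only to describe libraries. ESRRG has 26192 exon bases, PPARGC1A 16799 and PPARGC1B 10140, and the 2 lowest remote zone levels of each were in animals 1322 and 3622, as were those of PPARA, which is annotated with its coding sequence only. The same held for shorter genes, with TFAM (1716 exon bases) at 27.8 CPM in 1322 and 30.4 in 3622, and PPARD (4300) at 19.5 and 18.3 CPM. ESRRA (2304) and RXRG (3102) had their lowest remote zone level in another animal. NRF1 (10309) and ESRRB (5919) were lowest in remote zone 3622, at 6.35 and 6.95 CPM, and next lowest in remote zone 1922, at 7.12 and 9.25 CPM. Remote zone 3622 also had 33.5% and remote zone 1322 21.4% of their counts on mitochondrially encoded genes, against 5.69% to 17.3% in the other 10 libraries. The part of transcript length in the low values was not tested.

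**Figure D3:**
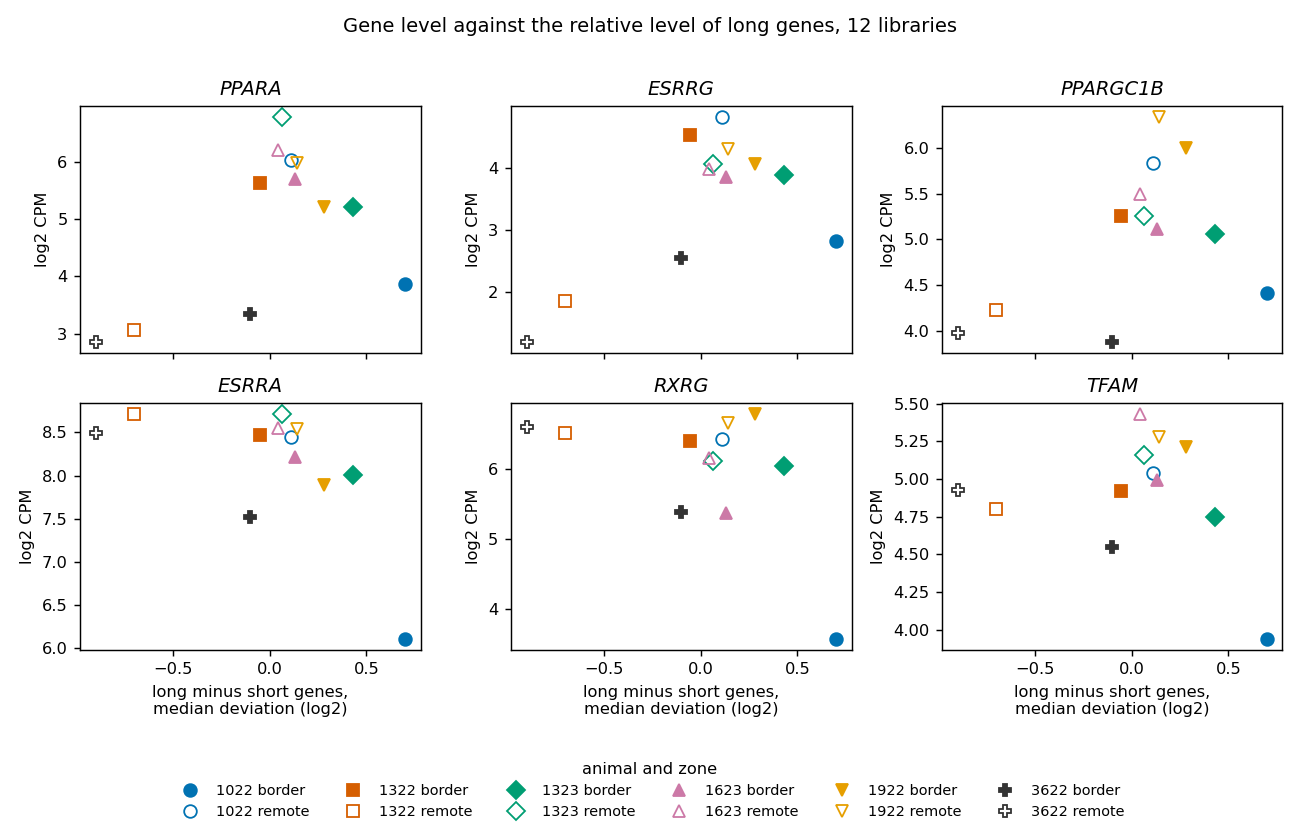
Level of 6 genes in log2 CPM against the relative level of long transcripts (long minus short genes, median deviation on the log2 scale) in 12 libraries, with filled symbols for the border zone, open symbols for the remote zone and 1 symbol shape per animal. PPARA and ESRRG are lowest in remote zone 3622 and remote zone 1322, at -0.90 and -0.70 on the horizontal axis, whereas ESRRA and RXRG are high in both and lowest in border zone 1022, at 0.70.

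Animals 1322 and 3622 were also left out together, an alternative chosen after the levels were seen. They are the animals in which PPARA and ESRRG were higher in the border zone, so the direction of both genes in the remaining 4 animals follows from this choice. For PPARA the log2 fold change was then -1.16, with an adjusted p = 0.12 by edgeR's quasi-likelihood test, and -1.26 with the animal as a block, with an adjusted p = 0.17. ESRRG was at -0.61, with an adjusted p = 0.238, ESRRB at -1.01, with an adjusted p = 0.194, and PPARGC1A at -1.02, with an adjusted p = 0.26. With these 4 animals edgeR called 0 of the 10 genes and 6 of all genes tested (0.0429%), and with the block 0 of all genes.

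The spread between animals differed widely among the 10 genes. In the remote zone, ESRRA had an SD of 0.11 on the log2 scale, and 2.59% of all genes tested had an SD as low. NRF1 (0.17), RXRG (0.23), TFAM (0.23) and PPARD (0.26) were also below the median of all genes, 0.38, while ESRRB (0.50), PPARGC1A (0.82), PPARGC1B (0.92), ESRRG (1.47) and PPARA (1.73) were above it. In the border zone the SD of ESRRA was 0.84 and that of RXRG 1.13, where the median of all genes was 0.47. Both values were widened by border zone 1022. There ESRRA was at 6.11 log2 CPM, against 7.52 to 8.47 in the other border zone libraries, and RXRG at 3.58, against 5.37 to 6.78. Of the 10 genes, 6 had a higher SD in the border zone, as did 62.5% of all genes.

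Other genes of the same pathways were read from 6 lists, and edgeR called 0 genes of each list after adjustment. Scaling libraries by their totals only moved the all-gene median from 0.04 to 0.32 on the log2 scale and the list medians with it. They were then -0.30 for the oxidative genes bound by ERRs, -0.13 for the fatty acid genes bound by PPARs and -0.61 for the mitochondrially encoded proteins. For mitochondrial DNA transcription and replication the median turned to 0.11 and for other nuclear receptors to 0.32, and for binding partners and cofactors it was 0.32. Of the oxidative genes bound by ERRs, 21 of 21 had a log2 fold change below 0, as did 46.7% of all genes, with a median of -0.54. An unadjusted p under 0.05 by edgeR was found for 7 of the 21, against 24.7% of all genes. The median was -0.35 without animal 1022, whose border zone library was the lowest for FH, and that of the 12 cardiomyocyte markers was -0.53, or -0.30 without this animal. DESeq2 called 1 of the 21, or 8 with the block, all lower, where it called 1.85% and 8.67% of all genes lower. IDH3B, a subunit of isocitrate dehydrogenase in the citric acid cycle, was at 48.0 to 290 CPM in the border zone against 280 to 465 in the remote zone, with a log2 fold change of -0.93 (SE 0.33, adjusted p = 0.12 by edgeR). NDUFV1, a subunit of respiratory complex I, was at 109 to 579 CPM in the border zone against 581 to 859 in the remote zone, with a log2 fold change of -0.84 (SE 0.32, adjusted p = 0.135 by edgeR). FH, the fumarase of the citric acid cycle, was at 80.9 to 276 CPM in the border zone against 281 to 342 in the remote zone, with a log2 fold change of -0.58 (SE 0.24, adjusted p = 0.158 by edgeR). All 3 were lower in 6 of 6 animals, as was ESRRA, and the zones did not overlap for NDUFV1 and FH, a pattern with all border zone libraries below all remote zone libraries that 0.701% of all genes showed.

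Among 21 tested fatty acid genes bound by PPARs, 18 had a log2 fold change below 0, with a median of -0.38. An unadjusted p under 0.05 by edgeR was found for 4 of the 21, against 24.7% of all genes tested. Without animal 1022 the median was -0.16, where that of the cardiomyocyte markers was -0.30. DESeq2, which tested 22 genes of the list, called 1 higher, and with the block 5 lower. It called 8.48% of all genes higher without the block and 8.67% lower with it. CPT1A, the form of the mitochondrial carnitine palmitoyltransferase that prevails in liver, went the other way, with 9.99 to 41.5 CPM in the border zone against 7.08 to 14.0 in the remote zone. Its log2 fold change was 1.04 (SE 0.33, adjusted p = 0.0915 by edgeR), and it was higher in 5 of 6 animals. Border zone 1022 held the 41.5 CPM, and the other border zone libraries at most 19.4 CPM. Without animal 1022 the log2 fold change was 0.58 (adjusted p = 0.253 by edgeR). ECH1 and ACADVL, enzymes of fatty acid oxidation, had log2 fold changes of -0.78 and -0.73 (adjusted p = 0.134 and 0.171 by edgeR) and were lower in 6 of 6 animals.

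The mitochondrially encoded proteins, whose transcription depends on TFAM, had log2 fold changes below 0 for 13 of 13 genes, with a median of -0.99. An unadjusted p under 0.05 by edgeR was found for 10, against 24.7% of all genes tested. The 13 genes vary with the mitochondrial share of each library, so they are not 13 separate results. DESeq2 called 1 of the 13, or 9 with the block, all lower, where it called 1.85% and 8.67% of all genes lower. ND6, COX1 and ATP6 were at -1.21, -0.97 and -1.11 (adjusted p = 0.156, 0.157 and 0.157 by edgeR), and the remote zone levels of these transcripts were highest in the library of animal 3622. Without this animal the median was -0.72, and ND6 was at -0.74 (adjusted p = 0.352 by edgeR). Without animals 1322 and 3622 together the median was -0.47, and ND6 was at -0.41 (adjusted p = 0.525 by edgeR). In these nondirectional libraries reads on ND6 cannot be assigned to a strand. The 18 genes listed for mitochondrial DNA transcription and replication include a protease, an rRNA methyltransferase and the nuclear factors GABPA, GABPB1 and GABPB2. Of these 18, 15 were below 0, with a median of -0.14. An unadjusted p under 0.05 by edgeR was found for 1, against 24.7% of all genes tested. DESeq2 called 0 with or without the block. LONP1, a mitochondrial protease, TFB1M, a mitochondrial rRNA methyltransferase, and TWNK, the helicase of mitochondrial DNA, were at -0.37, -0.35 and -0.38 (adjusted p = 0.195, 0.26 and 0.279 by edgeR), beside TFAM at -0.35. Without animal 1022 the median of the list was -0.07, and LONP1 and TWNK were both at -0.23.

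Binding partners and cofactors had no common direction, with 10 of 16 above 0 and a median of 0.12 (-0.04 without animal 1322). Of the 16, 3 had an unadjusted p under 0.05 by edgeR, against 24.7% of all genes tested. DESeq2 called 1 of the 16, or 2 with the block, all lower, where it called 1.85% and 8.67% of all genes lower. RXRB, another retinoid X receptor, was at 26.4 to 30.6 CPM in the border zone against 32.0 to 38.5 in the remote zone. These zones did not overlap, and the log2 fold change was -0.29 (SE 0.11, adjusted p = 0.133 by edgeR, with DESeq2 at -0.34 and past the threshold). Scaled by library totals only, it was -0.0059 (adjusted p = 0.985 by edgeR). KLF15, a factor of heart lipid metabolism, was at -0.74 and lower in 6 of 6 animals (adjusted p = 0.192 by edgeR). Among 19 other nuclear receptors 10 were below 0, with a median of -0.02 (0.04 without animal 3622 and 0.09 without 1323). Of the 19, 5 had an unadjusted p under 0.05 by edgeR, against 24.7% of all genes tested. DESeq2, which tested 20, called 1 higher and 1 lower, where it called 8.48% of all genes higher and 1.85% lower. NR2F1, an orphan receptor of development, and the retinoic acid receptors RARG and RARA were at 1.78, 0.92 and 0.56 (adjusted p = 0.117, 0.119 and 0.145 by edgeR), and without animal 1022 at 1.09, 0.48 and 0.30. PPARG, the PPAR of fat cells, had 20 to 196 counts per library, at 1.46 to 5.77 CPM in the border zone against 1.04 to 3.56 CPM in the remote zone.

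**Figure D4:**
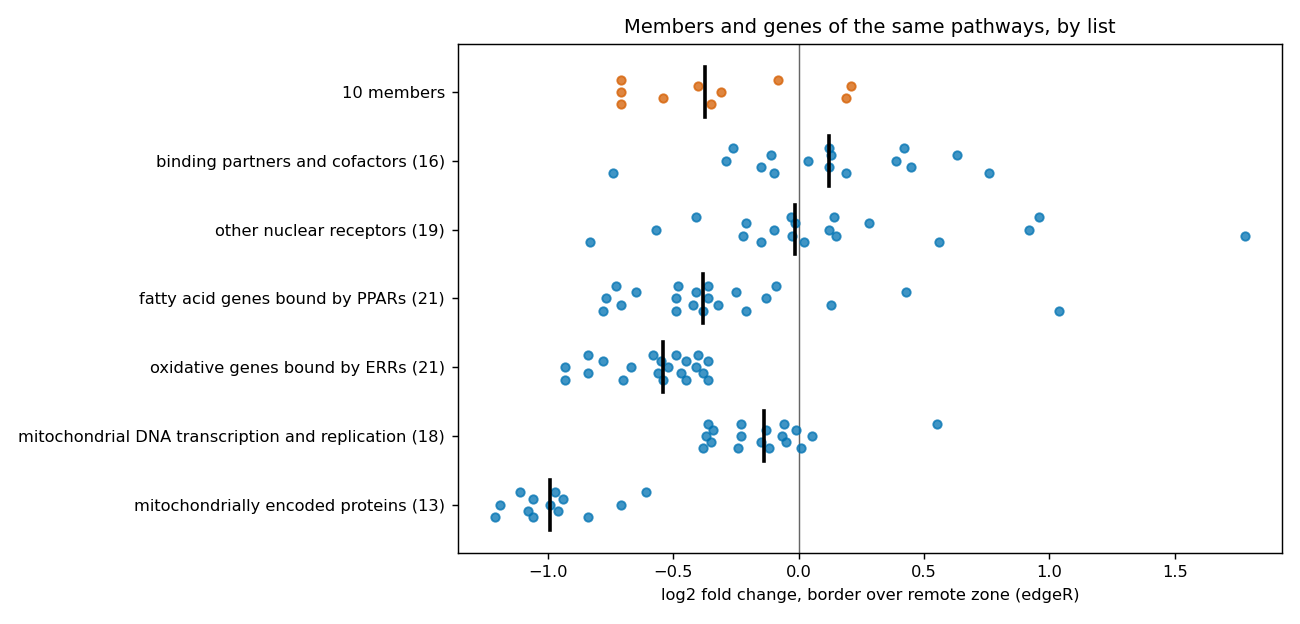
Log2 fold change of border over remote zone by edgeR for the 10 genes and for the tested genes of 6 pathway lists, 1 point per gene, with a vertical bar at each list's median and the number of genes tested in brackets. Points are spread vertically only to be seen. All 21 oxidative genes bound by ERRs and all 13 mitochondrially encoded genes lie below 0, and the medians of the cofactors and other nuclear receptors lie at 0.12 and -0.02.

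For each of the 10 genes, the genes with a symbol whose log2 CPM was most like it over the 12 libraries were found by Pearson's r. ESRRA was closest to ACOT8 (0.992) and VAPA (0.987), RXRG to RBPMS (0.984) and CA14 (0.972), and TFAM to NOCT (0.969) and OXSM (0.965). PPARA was closest to ZFP91 (0.986) and DLG1 (0.980), ESRRG to MTOR (0.984) and RAB3GAP1 (0.981), and PPARGC1B to TMEM94 (0.984) and FAM53C (0.975). PPARGC1A was closest to RETREG1 (0.960) and SERBP1 (0.951), and PPARD to IL4R (0.941) and KDM4C (0.932). ESRRB was closest to SPIRE2 (0.933) and TRAF3IP3 (0.918), and NRF1 to POLA1 (0.942) and ARHGAP20 (0.873). The neighbours of PPARA and ESRRG differed little between the zones, with log2 fold changes of -0.07 for ZFP91, -0.10 for DLG1, 0.06 for MTOR and -0.04 for RAB3GAP1. ACOT8 was at -0.43 and lower in 6 of 6 animals (adjusted p = 0.202 by edgeR). The neighbours were picked for the highest r among the tested genes with a symbol. Each neighbour shares library, depth and scaling with the gene it was picked for.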

How the data were processed

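RNA was sequenced from 12 libraries, 1 border zone and 1 remote zone library of each of 6 pigs. Per the methods of the study, the libraries were nondirectional after poly(A) selection, and the authors read paired ends of 150 bases and used FastQC 0.12.1, MultiQC 1.17, STAR 2.7.10a on Sscrofa11.1 with the genes of Ensembl 113, and featureCounts 2.16.1. The options for reads that match several genes are not given in the sources used here. The authors deposited raw counts per gene without normalization, with totals of 15130210 to 31618680 per library. PCR copies cannot be told from separate molecules.

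Counts were analysed with edgeR 4.0.16 in R 4.3.3. Genes were kept by filterByExpr (13844), scaled by TMM and compared by the robust quasi-likelihood test (the legacy form of its fit) with zone as the only term and Benjamini-Hochberg adjustment at 0.05. SE is the fold change on the log2 scale over the root of F. Log2 CPM used a prior count of 2. Replicates are animals. Symbols were found for 15623 of 35682 genes. MYH7, TTN, MB, THY1, MKI67, PERM1, CD36 and ATP5F1B were not matched and are not analysed here. Positions, exon lengths and promoter windows of 300 bases came from the RefSeq annotation of the same build, whose gene models can differ from those counted, so levels were not compared between genes.

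The pairing is by animal, since libraries with the same number are from the same pig. Within pairs, deviations from the zone means had an average r of 0.35, and 4 of 6 pairs were over 0.1. No pair of libraries had counts within sampling noise of each other (lowest chi-square 27.3 per gene). Alternatives were the replicate block, DESeq2 1.42.0, its size factors, library totals, other filters, no mitochondrial genes and each animal left out. The fits without animals 1322 and 3622, the block with 1 animal left out and the length measure were added after seeing the data. The test steps were tested on simulated data.

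The genes and lists were chosen with earlier results of these data known. Named from each pathway list are the 3 genes with the lowest unadjusted p where none passed, and for each of the 10 genes its 2 nearest genes by Pearson r. A gene that this rule names is not reported here. PPARG, TRMT112 and COL1A1 were named outside this rule, after their values were seen.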

Additional observations from a re-analysis of the deposited data

Results flagged for a closer look

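For each of the 10 genes, the log2 CPM in either zone and the within-animal difference were examined, 30 groups of 6 values in all, for a highest or lowest value set apart from the rest. Chance sets apart about 1 in 20 groups, and 2 were found, both in animal 1022. The border zone log2 CPM of PPARD was 5.29 in animal 1022, and the next highest was 4.65. The difference of ESRRA, border minus remote zone, was -2.34 in animal 1022, and the next lowest was -0.97. The mean difference of the cardiomyocyte markers in this animal was -2.44. The cause of either value was not tested.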

How the results depend on the processing

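By edgeR 0 of the 10 genes passed, and the count was 0 under every alternative except DESeq2 with the replicate block (1, ESRRA at -0.90). The sign of ESRRG was not stable: its log2 fold change was 0.18 with the replicate block, 0.17 in DESeq2 with the block, 0.07 with library totals only, 0.07 without the border zone library of animal 3622, and ran from -0.49 to 0.36 when single animals were left out. With the block and 1 animal left out it was 0.58 without 1022, 0.23 without 1323, 0.27 without 1623 and 0.29 without 1922. It was -0.29 without 1322 and -0.053 without 3622. No other gene of the 10 reversed, and of their 230 values under the alternatives 220 kept direction and side of the threshold. Over the 10 genes and the named list genes together, 612 of 641 values did so, 20 passed where they had not and 9, all of ESRRG, reversed.

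The number of all genes called was 287. It was 1724 with DESeq2, 2763 with DESeq2 and the block, 41 with the replicate block, 149 with at least 10 counts in every library, 139 with no filter, 1551 with library totals only and 156 without the border zone library of animal 3622. With each animal left out it ran from 0 to 519, with the block and 1 animal left out from 0 to 856 (51 without 1322), and without animals 1322 and 3622 it was 6, or 0 with the block. Genes of the 6 pathway lists called numbered 0, but 6 with DESeq2, 26 with DESeq2 and the block, 4 with library totals only, 1 without animal 1322 and 4 without animal 1022 with the block. Scaling by library totals shifted the all-gene median from 0.04 to 0.32 on the log2 scale. The block changed no other call of the 10 genes. The causes were not tested. The SE of the 10 genes was between 0.15 for NRF1 and 0.61 for PPARA on the log2 scale, and which depth a smaller difference would need was not tested.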
